A study of Mus musculus with 15 samples.

Results

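The lysosomal enzymes, membrane proteins and proton pump form a set of 39 genes named by symbol, with the cathepsins left out. Of these, 38 were measured among the 18193 genes of the arrays, each read through whichever of its probe sets was brightest on average over the 15 arrays. Cd63, a tetraspanin of late endosomes, had no probe set assigned to it alone and is not analysed here. The 38 genes comprised 9 membrane proteins, 8 glycosidases, 4 sulfatases and phosphatases, 7 lipid hydrolases and lipid-binding proteins, the peptidase Tpp1 with the glycoprotein progranulin (Grn), 7 proton pump genes and the transcription factor Tfeb.

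All cells came from C57Bl/6 mice at steady state, and the progenitors are labelled WT. Age, sex and the number of mice pooled are not stated in the labels. Bone marrow progenitors were sorted by flow cytometry, 2 arrays a group, as living IL7R- MHCII- cells. Granulocyte-monocyte progenitors (GMP) were gated as CD117hi, CD16/32+, CD135- and CD11c-, and their label names no Lin gate, while the other 3 groups were Lin-. Common myeloid progenitors (CMP) were CD117hi, CD135+ and CD16/32-, common dendritic cell progenitors (CDP) had the same CD135+ CD16/32- gate with intermediate CD117, and pre-cDC, the precursors of the classical dendritic cell, were CD117lo, CD135+, CD16/32- and CD11c+. Whole bone marrow was cultured for 7 days with 20 ng/ml of GM-CSF or of M-CSF, growth factors that drive myeloid cells. These cultures gave non-adherent CD11c+ cells from GM-CSF, adherent cells from GM-CSF and adherent cells from M-CSF, 1 array each. Bone marrow monocytes, enriched by negative selection to a fraction mostly positive for CD11b and Ly6C, received 20 ng/ml of GM-CSF for 0, 24 or 48 h, 1 array each. A single pre-cDC array titled Spl has a scale of its own and entered no comparison. No member encodes a protein used in a sort.

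Lysosomes are acidic organelles in which hydrolases break down material taken up by endocytosis, phagocytosis and autophagy. The vacuolar proton pump, built from a membrane sector (V0) and a cytosolic sector (V1), acidifies them, and membrane proteins protect the limiting membrane or carry products out. Tfeb and its relatives Tfe3, Mitf and Tfec bind E-box-like sites, known as CLEAR elements, near the start of many lysosome genes. In macrophages and dendritic cells the pathway is used to digest engulfed cells and to prepare antigen.

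Because Tfeb was itself among the genes that differed between the sorted cells, its core site was searched in the promoters. RefSeq (GRCm38.p6) windows from 250 bases before to 50 bases after the start were given for 34 of the 39 genes. The promoters of Npc1, Asah1, Atp6v0d2, Atp6v1b2 and Atp6v1h were not searched. In the windows of these 34 genes the letters TCACGTG were searched on both strands. A gene counted if any of its windows held them. They were found for 9 of the 34 genes (26.5%), against 5.80% of all genes on the arrays that had a window and 28.8% of 52 other lysosome genes. The longer palindrome TCACGTGA, which contains TCACGTG, was in 5 of the 34 (14.7%, against 1.63% of all genes on the arrays). The shorter E-box CACGTG, contained in all of them, was in the same number, 9 of the 34, against 10.2% of all genes on the arrays. Such sites are known near the start of many lysosome genes, so the higher share was foreseeable and is not a test of Tfeb. A match describes the letters only, and no binding was measured. The site nearest to the start is shown for each of the 9 genes, with TCACGTG in capitals, because only these of the 34 searched genes carry it:
Lamp1, chr8:13159134-13159162 (+): acgtgaccacaTCACGTGcggaacggagc
Mcoln1, chr8:3500462-3500490 (+): aggcgccccgcTCACGTGaccgcggcgca
Cln3, chr7:126583341-126583369 (-): cacgggtactgTCACGTGacccccaacct
Gla, chrX:134601183-134601211 (-): tgagatctcggTCACGTGagcaactctcg
Glb1, chr9:114401018-114401046 (+): ctgcttctgagTCACGTGgcctacagagg
Naglu, chr11:101070009-101070037 (+): caaccttcaggTCACGTGgcccgaggtcg
Sgsh, chr11:119355522-119355550 (+): gctccccacggTCACGTGcacggcaggcc
Atp6v0d1, chr8:105566051-105566079 (-): ccctactgcggTCACGTGagacgcggtgc
Atp6v1a, chr16:44139374-44139402 (-): ttttttttaaaTCACGTGataggcttaac

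The whole windows of Mcoln1 and Gla are shown because each holds the site at 2 places while the genes differed in opposite directions in pre-cDC against GMP. Capitals mark TCACGTG, with the following A where it completes TCACGTGA.
Mcoln1, chr8:3500269-3500568 (+): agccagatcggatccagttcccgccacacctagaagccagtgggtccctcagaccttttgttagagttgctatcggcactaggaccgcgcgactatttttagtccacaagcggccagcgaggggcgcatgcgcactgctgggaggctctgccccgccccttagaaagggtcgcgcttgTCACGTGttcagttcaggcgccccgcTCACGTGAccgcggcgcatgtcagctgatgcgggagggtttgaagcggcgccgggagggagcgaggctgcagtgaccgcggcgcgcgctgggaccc
Gla, chrX:134600956-134601255 (-): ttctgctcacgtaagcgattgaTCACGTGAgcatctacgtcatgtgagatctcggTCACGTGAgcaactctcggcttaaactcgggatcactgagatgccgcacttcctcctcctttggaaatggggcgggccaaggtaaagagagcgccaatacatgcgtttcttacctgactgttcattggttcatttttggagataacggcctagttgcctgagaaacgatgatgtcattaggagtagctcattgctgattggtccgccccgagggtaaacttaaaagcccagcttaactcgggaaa

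The deposited values are linear intensities. Array medians were 15.95 to 17.44 in the progenitors, 24.09 to 25.66 in the cultures and 77.73 to 80.53 in the monocytes, so levels were compared only within each of these sets. The number of arrays limits the precision. The 2 arrays of a progenitor group correlated at 0.995 to 0.997 across genes, and among members with a group mean above 32 their values differed by a median factor of 1.04 to 1.09. The labels do not say that the arrays came from separate animals, so the spread behind every p-value may be technical. Progenitor differences are log2(intensity + 32) with their SE, from a limma fit to all 8 arrays, with p-values adjusted over all genes and a threshold of 0.05. In bulk samples, fewer cells of a type and less RNA per cell cannot be told apart. The gated genes followed their labels: Flt3 (CD135) had 35.9 and 31.8 in GMP, against 1193 and 1204 in CMP, and Itgax (CD11c) had 1537 and 1563 in pre-cDC, against 153 and 124 in CDP.

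Across the progenitors, 24 of the 38 members had their highest group mean in pre-cDC (63.2%, against 33.5% of all genes) and 10 in GMP, a share of 26.3% that is near the 26.8% of all genes. The highest mean was in CDP for 3 members (7.89%, against 17.1%) and in CMP for 1 (2.63%, against 22.5%). The lowest mean was in CMP for 19 of the 38 members, against 19.9% of all genes. In at least 1 of the 5 tested comparisons, 35 members (92.1%) passed the test, against 53.0% of all genes. The shares of all genes in this paragraph include dim genes, and shares among brighter genes were not computed for these counts. On each progenitor array 36 or 37 of the 38 members lay above the array median. Acp2 (lysosomal acid phosphatase), Ppt1 (palmitoyl-protein thioesterase) and Atp6v0d2 (a V0 subunit) passed in none. Atp6v0d2 had intensities of 1.02 to 3.17 on the 8 progenitor arrays, below the median of every one of them.

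**Figure D1:**
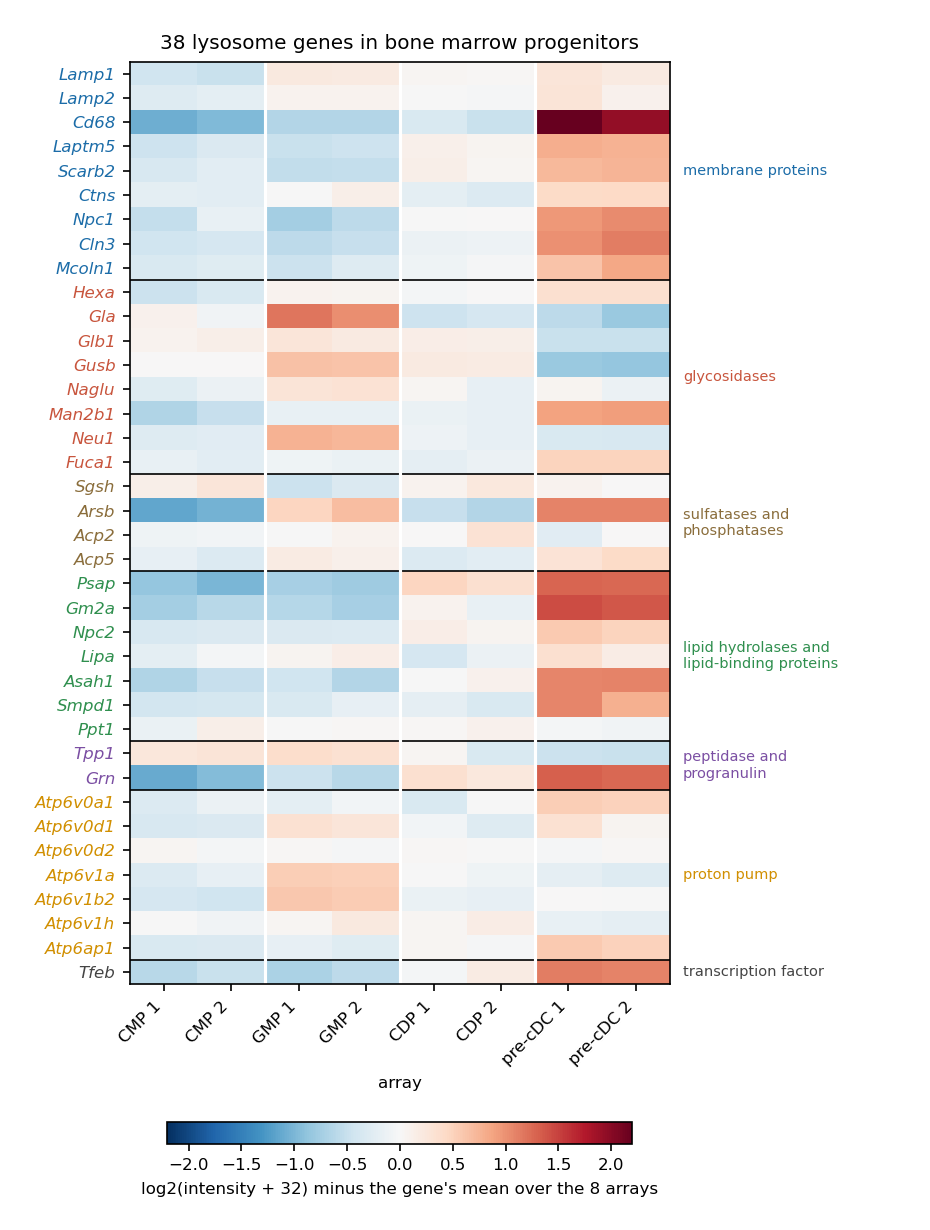
Log2(intensity + 32) of the 38 measured genes on each of the 8 progenitor arrays (columns), minus the gene's mean over those arrays, with rows grouped by role and numbers after a group name marking the array. Most rows are highest in pre-cDC, 10 rows are highest in GMP (among them Gla, Neu1 and Gusb), a share near that of all genes, and the 2 columns of a group resemble each other.

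GMP and CMP share high CD117 and differ in the CD16/32 and CD135 gates and, as labelled, in the Lin gate, which is named for CMP alone. The comparison asks what distinguishes the progenitor of granulocytes and monocytes. In GMP, 15 members were higher than in CMP and 1 was lower. The share of all genes called higher was 7.00% and that called lower 9.76%. The arrays of the 2 groups did not overlap for 57.5% of all genes. Among the 11669 brighter genes, those whose highest group mean lay above the lowest progenitor array median, the shares were 10.5% and 14.9%. The members' median log2 difference was 0.16, against -0.01 over all genes. The higher genes were 6 of 8 glycosidases, 3 of 9 membrane proteins, 3 of 7 pump genes, 2 of 4 sulfatases and phosphatases, and Grn, while 0 of the 7 lipid genes passed the test.

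Among the enzymes, Arsb, which removes sulfate from dermatan sulfate, had 1332 and 1539 in GMP, against 413 and 443 in CMP, a difference of 1.67 ± 0.097 (adjusted p = 1.06e-07). Gla, the α-galactosidase that trims globosides, had 205 and 180 in GMP, against 79.5 and 66.3 in CMP (1.10 ± 0.12, adjusted p = 2.83e-05). Neu1, a sialidase, had 98.3 and 96.3 in GMP, against 31.5 and 32.9 in CMP (1.01 ± 0.091, adjusted p = 6.18e-06). For all 3 genes, both GMP arrays lay above both CMP arrays by more than the arrays of a group differed. One of the 3 probe sets of Arsb did not share its rise (-0.08), and the lowest of 3 gave 0.24 for Gla and 0.02 for Neu1. Gusb, the β-glucuronidase, had 1036 and 1014 in GMP, against 654 and 651 in CMP (0.63 ± 0.089, adjusted p = 0.000268). The other probe set of Gusb gave 0.00. Hexa, Naglu, Man2b1 and Acp5 were also higher, by 0.39 to 0.49. Acp5 was dim, with 31.4 and 28.2 in GMP, against 17.1 and 13.3 in CMP. The second probe set of Man2b1 pointed the other way (-0.50), and with the mean of its probe sets its difference was -0.04. The only lower member was Sgsh, which acts on heparan sulfate, with 15.2 and 20.2 in GMP, against 39.7 and 46.6 in CMP (-0.60 ± 0.099, adjusted p = 0.000945). Its other probe set gave 0.08.

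Of the pump genes, 3 of 7 were higher in GMP and 0 lower. Atp6v1b2, a subunit of the catalytic ring, had 532 and 518 in GMP, against 257 and 245 in CMP (0.98 ± 0.097, adjusted p = 1.40e-05). Atp6v1a, the subunit that hydrolyses ATP, had 318 and 311 in GMP, against 162 and 180 in CMP (0.77 ± 0.10, adjusted p = 0.000181). Atp6v0d1, a V0 subunit, had 791 and 751 in GMP, against 477 and 492 in CMP (0.64 ± 0.11, adjusted p = 0.00147). The groups did not overlap for these 3 subunits. One of the 4 probe sets of Atp6v1b2 gave -0.03. Of the other pump genes, Atp6v0a1, Atp6v0d2, Atp6v1h and Atp6ap1 had differences of 0.01 to 0.17 and did not pass the test.

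Among membrane proteins, Lamp1, a glycoprotein that coats the inner face of the lysosomal membrane, had 2211 and 2183 in GMP, against 1392 and 1351 in CMP (0.67 ± 0.072, adjusted p = 2.80e-05). Lamp2 and Cd68 were higher by 0.32 and 0.38. The remaining 6, including the cholesterol exporter Npc1 (-0.31) and the calcium channel Mcoln1 (-0.08), did not pass the test. Grn was higher (0.49 ± 0.084, adjusted p = 0.00113), and Tfeb had 54.3 and 61.7 in GMP, against 59.3 and 67.1 in CMP, with overlapping arrays. Some of these calls depended on single arrays. Lamp2 and Cd68 lost the call on leaving out any one of the CMP or GMP arrays, with adjusted p up to 0.114 and 0.192. Naglu lost it without CMP replicate 1 or either GMP array (up to 0.0885), and Acp5 without GMP replicate 1 or CMP replicate 2 (up to 0.0863).

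Of 67 other lysosome genes measured (cathepsins, further hydrolases and pump subunits, transporters, sorting factors and nutrient sensors), 20 were higher and 8 lower in GMP. Tfec, a relative of Tfeb, had 1116 and 950 in GMP, against 179 and 195 in CMP (2.28 ± 0.11, adjusted p = 2.22e-08). The sorting receptor Sort1 (1.16) and the cathepsin Ctsh (1.14) followed. The lower genes were led by the cathepsin Ctss (-1.30), then Ctso (-0.90) and the sulfatase Ids (-0.59). Marker levels of other cells also moved between these sorts. The summed intensity of 6 measured neutrophil genes was 2805 to 3361 in GMP, against 175 to 205 in CMP, with 3 higher and 1 lower. The sum of 6 mast cell, basophil and eosinophil genes was 405 to 535 in GMP, against 168 to 189 in CMP, with 4 higher and 0 lower. Their part in the differences of the lysosome genes was not tested.

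**Figure D2:**
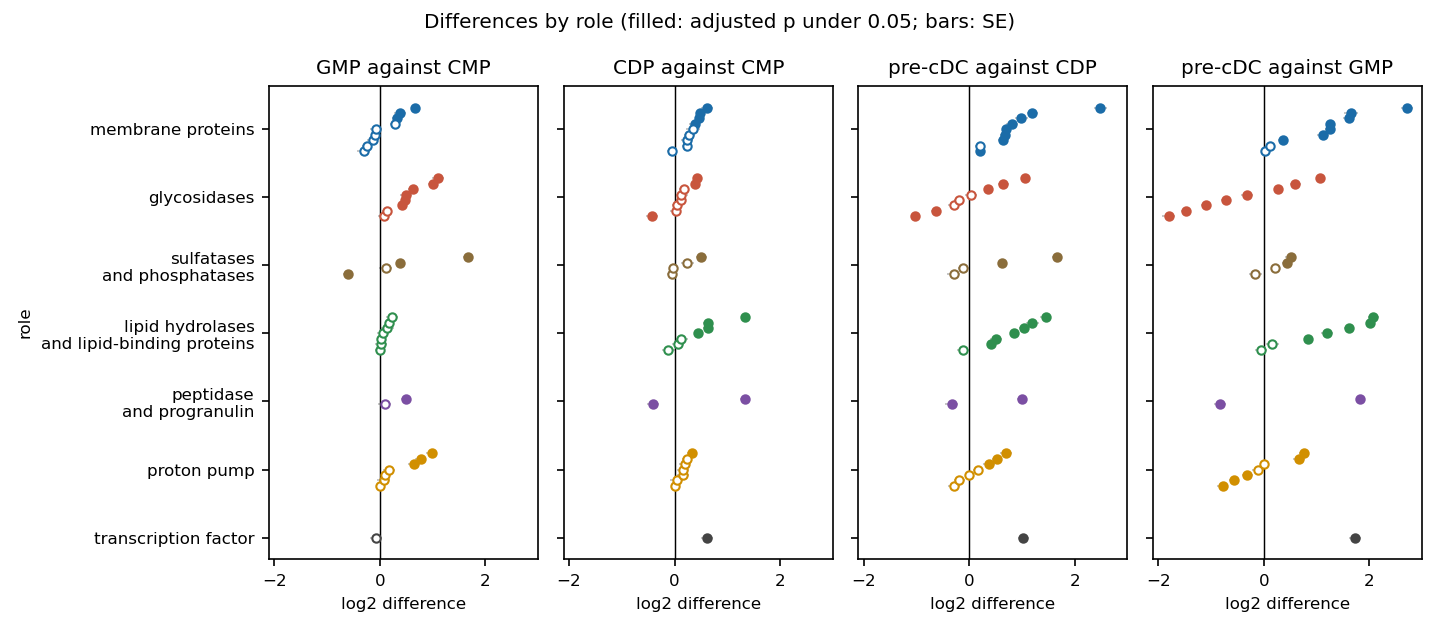
Log2 difference of each gene (points, with SE bars) by role in 4 of the tested comparisons, where filled points passed the test and open points did not. The 7 lipid genes were all open in GMP against CMP, with differences of 0.00 to 0.23, while 6 of the 7 were filled and above 0 in pre-cDC against CDP.

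CDP against CMP follows the CD135+ CD16/32- cells as CD117 declines. In CDP, 14 members were higher and 2 lower than in CMP. The share of all genes called higher was 7.68% and that called lower 6.75%, or 11.8% and 10.1% among the 11669 brighter genes. The 2 lower members are a share near that of all genes and under that of the brighter genes. The arrays of the 2 groups did not overlap for 52.0% of all genes. The members' median difference was 0.24, against 0.00 over all genes. The higher members were led by Psap and Grn, and 4 of 7 lipid genes and 4 of 9 membrane proteins were among them.

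Psap, the precursor of the saposins that help enzymes reach sphingolipids, had 3992 and 3653 in CDP, against 1577 and 1403 in CMP (1.34 ± 0.076, adjusted p = 2.67e-07). Grn had 2487 and 2298 in CDP, against 880 and 983 in CMP (1.33 ± 0.084, adjusted p = 6.30e-07). Both genes were more than 2-fold brighter on each CDP array than on either CMP array. Asah1, the acid ceramidase, had 945 and 1018 in CDP, against 587 and 657 in CMP (0.63 ± 0.099, adjusted p = 0.000777). Gm2a, the protein that presents ganglioside to hexosaminidase, had 1219 and 1027 in CDP, against 681 and 744 in CMP (0.63 ± 0.099, adjusted p = 0.0008). One of the 3 probe sets of Gm2a gave -0.26, and the mean of its probe sets gave 0.15 (adjusted p = 0.562). Npc2, which hands cholesterol to Npc1, was higher by 0.44 ± 0.071 (adjusted p = 0.000933).

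Tfeb had 104 and 126 in CDP, against 59.3 and 67.1 in CMP (0.62 ± 0.11, adjusted p = 0.00226). Cd68, a glycoprotein related to the Lamp proteins and abundant in macrophages, had 182 and 161 in CDP, against 96.7 and 106 in CMP (0.61 ± 0.12, adjusted p = 0.00333). Arsb had 654 and 595 in CDP, against 413 and 443 in CMP (0.51 ± 0.097, adjusted p = 0.00303), with 1 of 3 probe sets at -0.25 and 0.10 (adjusted p = 0.426) as the mean of them. Lamp1 had 1950.4 and 1933 in CDP, against 1392 and 1351 in CMP (0.49 ± 0.072, adjusted p = 0.000483). In all 4 the CDP arrays lay above the CMP arrays. Laptm5, a lysosomal protein of leukocytes, was higher by 0.47, and Man2b1, Hexa, Scarb2 and the pump accessory subunit Atp6ap1 by 0.33 to 0.43.

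The 2 lower members were Gla, with 43.8 and 48.2 in CDP, against 79.5 and 66.3 in CMP (-0.43 ± 0.12, adjusted p = 0.0295), and Tpp1, a peptidase that removes tripeptides, with 617 and 465 in CDP, against 719 and 731 in CMP (-0.41 ± 0.12, adjusted p = 0.0328). Neither call was steady. Gla lost it without CMP replicate 1 or either CDP array (adjusted p up to 0.211) and with the mean of its probe sets (-0.10). Tpp1 lost it on leaving out any one of 5 arrays, namely both CMP, both GMP and CDP replicate 2 (up to 0.281). Among the higher members, Scarb2 lost the call without CMP replicate 1 or either CDP array (up to 0.147), and Atp6ap1 without any one of the CMP or CDP arrays (up to 0.117). Hexa (0.0598) and Man2b1 (0.0567) lost it without CMP replicate 1.

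Of the other 67 lysosome genes, 12 were higher and 4 lower in CDP. Ctsh had 1460 and 1219 in CDP, against 249 and 219 in CMP (2.36 ± 0.13, adjusted p = 2.43e-07). The protease legumain (Lgmn, 1.17) and the pump subunit Tcirg1 (1.12) followed. Igf2r, the receptor that sorts enzymes by mannose phosphate, was lower (-0.82), as were Gga2 (-0.42) and Ctsl (-0.40). The summed intensity of 5 measured erythroid genes was 133 to 193 in CDP, against 3988 to 5233 in CMP, with 4 lower. The monocyte sum was 4195 to 4451 in CDP, against 2217 to 2297 in CMP, with 2 of 5 higher. The sum of 7 dendritic cell precursor genes was 6225 to 6811 in CDP, against 3225 to 3369 in CMP. Flt3 and Itgax, whose proteins were gated, are among them. The sum of 6 early progenitor genes, which include Kit (CD117), was 4971 to 5466 in CDP, against 7305 to 8028 in CMP. Their part in these differences was not tested.

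CDP and GMP were also set against each other directly. Here 11 members were higher and 12 lower in CDP. The share of all genes called higher was 15.9% and that called lower 12.1%, or 24.1% and 17.7% among the 11669 brighter genes. The arrays of the 2 groups did not overlap for 61.5% of all genes. The members' median difference was -0.01, against 0.00 over all genes. The roles divided. Of the lipid genes 4 were higher and 1 lower, and of the membrane proteins 4 were higher and 1 lower. Of the glycosidases 0 were higher and 4 lower, and of the pump genes 0 were higher and 3 lower.

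Psap was higher in CDP, with 3992 and 3653 in CDP, against 1713 and 1655 in GMP (1.17 ± 0.076, adjusted p = 1.55e-07). Grn (0.84), Tfeb (0.70), Npc1 (0.66), Gm2a (0.63), Scarb2 (0.62), Asah1 (0.58) and Laptm5 (0.56) came next. Npc1 had 148 and 149.9 in CDP, against 76.1 and 89.1 in GMP (adjusted p = 0.0016). One of the 5 probe sets of Laptm5 gave -0.08. Gm2a turned to -0.03 with the mean of its 3 probe sets, and Scarb2 lost its call there (0.30, adjusted p = 0.0528). Sgsh, Npc2 and Cln3 were higher by 0.42 to 0.55, with the other probe set of Sgsh at -0.05, and Cln3 lost its call without GMP replicate 1 (adjusted p = 0.0701).

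Gla was lower in CDP, with 43.8 and 48.2 in CDP, against 205 and 180 in GMP (-1.52 ± 0.12, adjusted p = 8.14e-07). Arsb (-1.16), Neu1 (-0.89), Atp6v1b2 (-0.74), Atp6v1a (-0.59), Tpp1 (-0.50), Atp6v0d1 (-0.48) and Gusb (-0.45) followed. Atp6v1b2 had 306 and 297 in CDP, against 532 and 518 in GMP (adjusted p = 8.20e-05). The probe sets nearest to no difference gave -0.17 for Gla and -0.17 for Arsb. One of 3 probe sets of Neu1 gave 0.02, and Gusb lost its call with the mean of its probe sets (-0.24, adjusted p = 0.0737). Acp5, Naglu, Lipa (the acid lipase) and Ctns (the cystine exporter) were lower by 0.32 to 0.41. Leaving out GMP replicate 1 or CDP replicate 2 ended the calls of Tpp1 (adjusted p up to 0.075) and Atp6v0d1 (up to 0.0699). Naglu lost it without either GMP array or CDP replicate 2 (up to 0.244), Ctns without GMP replicate 2 or CDP replicate 2 (up to 0.189), and Lipa without any one of both CMP arrays, both GMP arrays and CDP replicate 1 (up to 0.27). Of the 67 other lysosome genes 17 were higher, led by Ctss (2.22), Lgmn (1.61) and Ctsh (1.22), and 17 lower, led by Tfec (-2.67), Gga2 (-1.04) and Sort1 (-1.01). Of 6 neutrophil genes 3 were lower and 1 higher, with a sum of 261 to 361 in CDP, against 2805 to 3361 in GMP. Of 5 erythroid genes 4 were lower, with a sum of 133 to 193 in CDP, against 2496 to 4441 in GMP, and the mast cell, basophil and eosinophil list had 4 of 6 lower. The sum of 6 granulocyte-monocyte progenitor genes, which include the gated Fcgr3, was 8699 to 10330 in CDP, against 31343 to 31832 in GMP. The dendritic cell precursor sum was 6225 to 6811 in CDP, against 1638 to 1645 in GMP. Their part was not tested. GMP against CMP, CDP against CMP and CDP against GMP share their arrays, so their differences are not independent.

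Pre-cDC against CDP follows the cells that gain CD11c. In pre-cDC, 24 members were higher and 3 lower than in CDP. The share of all genes called higher was 14.4% and that called lower 18.8%, or 21.3% and 28.4% among the 11669 brighter genes. The arrays of the 2 groups did not overlap for 61.2% of all genes. The members' median difference was 0.52, against -0.01 over all genes. By role, 8 of 9 membrane proteins and 6 of 7 lipid genes were higher with 0 lower, while the glycosidases held 3 higher and 2 lower. The summed intensity of all members was 43686 to 45229 in pre-cDC, against 26655 to 27826 in CDP.

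Cd68 had the largest difference of any member, with 1217 and 1005 in pre-cDC, against 182 and 161 in CDP (2.49 ± 0.12, adjusted p = 5.87e-09). Cln3, a membrane protein lost in a childhood neuronal storage disease, had 170 and 188 in pre-cDC, against 59.3 and 60.8 in CDP (1.20 ± 0.10, adjusted p = 1.03e-06). Both groups were clearly apart for these genes. Npc1 (0.99), Mcoln1 (0.81), Laptm5 (0.70), Ctns (0.68) and Scarb2 (0.64) were also higher. Mcoln1 had 221 and 262 in pre-cDC, against 121 and 127 in CDP. The lowest probe sets gave 0.36 for Cln3, 0.31 for Mcoln1 and 0.01 for Laptm5. Lamp1 was near the threshold (0.20 ± 0.072, adjusted p = 0.0471). Its call was lost on leaving out any one of the 8 arrays (adjusted p up to 0.159) and under quantile normalization (0.05, adjusted p = 0.602). Lamp2 did not pass (0.20, adjusted p = 0.0799).

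Among the lipid genes, Gm2a had 3193 and 3037 in pre-cDC, against 1219 and 1027 in CDP (1.45 ± 0.099, adjusted p = 1.60e-07). Smpd1, the acid sphingomyelinase, had 284 and 225 in pre-cDC, against 97.7 and 85.9 in CDP (1.20 ± 0.12, adjusted p = 5.44e-06). Asah1 had 2035 and 2061 in pre-cDC, against 945 and 1018 in CDP (1.04 ± 0.099, adjusted p = 3.15e-06). Each of these genes was about 2-fold brighter or more in pre-cDC. Psap, at 7010 and 6871 in pre-cDC, against 3992 and 3653 in CDP, was higher by 0.86 ± 0.076 (adjusted p = 1.69e-06). Lipa and Npc2 were higher by 0.51 and 0.42, and Lipa lost its call without CDP replicate 1 or pre-cDC replicate 1 (adjusted p up to 0.0583). Grn had 4869.7 and 4729.8 in pre-cDC, against 2487 and 2298 in CDP (adjusted p = 1.05e-06).

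Among the sulfatases and phosphatases, Arsb had 2053 and 2050.4 in pre-cDC, against 654 and 595 in CDP (1.67 ± 0.097, adjusted p = 3.83e-08). The 3 probe sets of Arsb ran from 0.14 to 1.67. Acp5, the tartrate-resistant phosphatase known from osteoclasts, had 37.0 and 42.9 in pre-cDC, against 13.4 and 15.5 in CDP (0.63 ± 0.087, adjusted p = 8.16e-05). Both CDP values of Acp5 lay below the median of their arrays. The 3 higher glycosidases were Man2b1, an α-mannosidase with 2287 and 2330 in pre-cDC, against 1100 and 1075 in CDP (1.06 ± 0.085, adjusted p = 6.24e-07), Fuca1 (0.65) and Hexa (0.36). The lower ones were Gusb, with 354 and 346 in pre-cDC, against 746 and 742 in CDP (-1.02 ± 0.089, adjusted p = 1.32e-06), and Glb1, the β-galactosidase, with 392 and 391 in pre-cDC, against 626 and 618 in CDP (-0.63 ± 0.092, adjusted p = 0.000132). The glycosidases moved in both directions, and the arrays of the groups did not overlap for these 5. The other probe set of Gusb gave -0.12. The remaining lower member, Tpp1, had 422 and 416 in pre-cDC, against 617 and 465 in CDP (-0.33 ± 0.12, adjusted p = 0.0471), and lost its call on leaving out any one of 7 arrays, all but CDP replicate 2 (up to 0.408).

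Tfeb had 271 and 263 in pre-cDC, against 104 and 126 in CDP (1.03 ± 0.11, adjusted p = 1.02e-05). In the pump, Atp6v0a1 (0.70), Atp6ap1 (0.53) and Atp6v0d1 (0.37) were higher, while the V1 genes Atp6v1a (-0.19), Atp6v1b2 (0.17) and Atp6v1h (-0.29) did not pass the test. The other 3 probe sets of Atp6v0a1 did not share its sign (down to -0.17), and the mean of its probe sets gave 0.09 (adjusted p = 0.266). Atp6v0d1 lost its call without pre-cDC replicate 1 or CDP replicate 2 (adjusted p up to 0.174).

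Of the other lysosome genes, 29 of 67 were higher and 13 lower in pre-cDC than in CDP. The higher ones were led by the calcium-permeable channel Tpcn1 (1.58), Ids (1.54) and Ctsh (1.40). The lower ones were led by Tfec, with 8.0 and 7.78 in pre-cDC, against 137 and 132 in CDP (-2.06 ± 0.11, adjusted p = 1.90e-08), Sort1 (-1.38) and Gga2 (-1.38). Both pre-cDC values of Tfec lay below the median of their arrays. Tfeb and Tfec, members of one family, therefore moved in opposite directions. Of 8 macrophage genes, 3 were higher in pre-cDC, 0 were lower, and their sum was 3514 to 3526 in pre-cDC, against 2982 to 3362 in CDP. The macrophage gene Adgre1 had 73.6 and 83.9 in pre-cDC, against 27.7 and 21.7 in CDP. Of 5 measured monocyte genes, 4 were higher and 0 lower, with a sum of 7095 to 7242 in pre-cDC, against 4195 to 4451 in CDP. The dendritic cell precursor sum was 11120 to 11783 in pre-cDC, against 6225 to 6811 in CDP. The early progenitor sum was 734 to 792 in pre-cDC, against 4971 to 5466 in CDP. That of the granulocyte-monocyte progenitor genes was 183 to 235 in pre-cDC, against 8699 to 10330 in CDP. Their part in the differences of the lysosome genes was not tested.

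Pre-cDC were also compared with GMP. Here 21 members were higher and 9 lower in pre-cDC. The share of all genes called higher was 21.0% and that called lower 23.1%, or 30.7% and 34.0% among the 11669 brighter genes. The 9 lower members are a share near that of all genes and under that of the brighter genes. The arrays of the 2 groups did not overlap for 69.4% of all genes. The members' median difference was 0.40, against -0.01 over all genes. All 8 glycosidases differed, 3 higher and 5 lower, while 7 of 9 membrane proteins and 5 of 7 lipid genes were higher with 0 lower.

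The higher members were led by Cd68, with 1217 and 1005 in pre-cDC, against 141 and 141 in GMP (2.72 ± 0.12, adjusted p = 7.13e-10). Gm2a (2.08), Psap (2.02), Grn (1.83) and Tfeb (1.73) followed, then Npc1 (1.65), Asah1 (1.62) and Cln3 (1.61). Tfeb had 271 and 263 in pre-cDC, against 54.3 and 61.7 in GMP (adjusted p = 3.41e-08). Psap had 7010 and 6871 in pre-cDC, against 1713 and 1655 in GMP (adjusted p = 2.05e-10). All of these had non-overlapping arrays. The other 13 higher members had differences of 0.28 to 1.26, and Ctns (without GMP replicate 1, adjusted p = 0.0802) and Hexa (without GMP replicate 2, adjusted p = 0.0562) lost their calls. Under quantile normalization Hexa was at 0.09 (adjusted p = 0.382) and Ctns at 0.23 (adjusted p = 0.0632). Atp6v0a1 lost its call with the mean of its probe sets (0.09, adjusted p = 0.246). Single probe sets of Laptm5 (-0.07), Arsb (-0.03) and Sgsh (-0.08) had the opposite sign.

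The lower members were led by Gla, with 37.9 and 27.0 in pre-cDC, against 205 and 180 in GMP (-1.80 ± 0.12, adjusted p = 3.89e-08). Gusb had 354 and 346 in pre-cDC, against 1036 and 1014 in GMP (-1.47 ± 0.089, adjusted p = 1.71e-08). Neu1 had 29.4 and 28.5 in pre-cDC, against 98.3 and 96.3 in GMP (-1.09 ± 0.091, adjusted p = 4.12e-07). These 3 glycosidases were several-fold dimmer in pre-cDC. The probe sets nearest to no difference gave -0.19 for Gla and -0.15 for Gusb. Tpp1 (-0.83), Atp6v1a (-0.78), Glb1 (-0.72), Atp6v1b2 (-0.57) and Naglu (-0.32) followed. Atp6v1a had 176 and 164 in pre-cDC, against 318 and 311 in GMP (adjusted p = 3.21e-05). One probe set each of Neu1 (0.01) and Atp6v1b2 (0.10) had the opposite sign. Naglu lost its call without either GMP array or pre-cDC replicate 2 (adjusted p up to 0.243). The ninth, Atp6v1h (-0.31), lost it without GMP replicate 2 or either pre-cDC array (up to 0.242) and turned to 0.03 with the mean of its probe sets. Of the other lysosome genes 32 of 67 were higher, led by Ctss (3.49), Ctsh (2.63) and Ids (2.37), and 19 lower, led by Tfec (-4.73), Gga2 (-2.42) and Sort1 (-2.39). Of 6 neutrophil genes 4 were lower, with a sum of 135 to 188 in pre-cDC, against 2805 to 3361 in GMP. Of 5 erythroid genes 4 were lower, with a sum of 33.8 to 48.8 in pre-cDC, against 2496 to 4441 in GMP. The mast cell, basophil and eosinophil list had 4 of 6 lower, with a sum of 32.1 to 52.2 in pre-cDC, against 405 to 535 in GMP. The monocyte list had 4 of 5 higher and 1 lower, with a sum of 7095 to 7242 in pre-cDC, against 1840 to 2272 in GMP. The dendritic cell precursor sum was 11120 to 11783 in pre-cDC, against 1638 to 1645 in GMP. That of the granulocyte-monocyte progenitor genes was 183 to 235 in pre-cDC, against 31343 to 31832 in GMP. Their part in the lysosome differences was not tested.

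Across comparisons, 20 members were higher in pre-cDC than in both CDP and GMP (52.6%, against 12.5% of all genes), and 3 were lower than in both (Gusb, Glb1 and Tpp1; 7.89%, against 14.5% of all genes). These 2 comparisons share the pre-cDC arrays. The shares of all genes in this paragraph include dim genes, and shares among brighter genes were not computed. Of the 15 members higher in GMP than in CMP, 8 were also higher in pre-cDC than in CDP, 1 (Gusb) was lower there and 6 were not called. The 8 are 53.3% of the 15, below the 63.2% of all 38 members that were higher in pre-cDC than in CDP. Over all genes, 26.5% of those higher in GMP than in CMP were higher in pre-cDC than in CDP. The 2 comparisons share no array, but both use the spread estimated from all 8 arrays, so their calls are not independent. Of the 24 members higher in pre-cDC than in CDP, 16 were not called in GMP against CMP (66.7%, against 70.1% of all such genes).

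**Figure D3:**
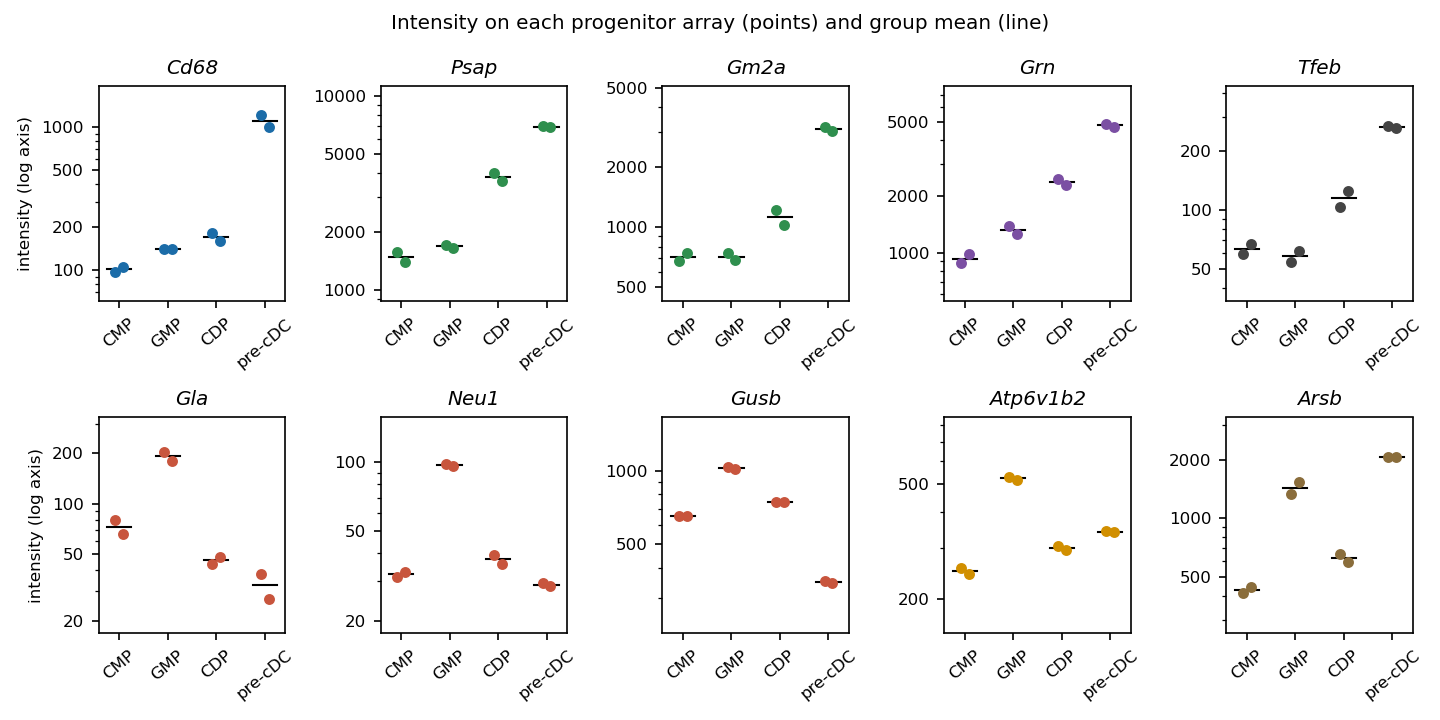
Intensity (log axis) of 10 lysosome genes on each progenitor array (points) with the group mean (line), chosen after their values were seen, as examples of genes brightest in pre-cDC or in GMP. Cd68, Psap, Gm2a, Grn and Tfeb are brightest in pre-cDC, while Gla, Neu1, Gusb and Atp6v1b2 are brightest in GMP and Arsb is high in both, at 1332 to 1539 in GMP 2053 and 2050.4 in pre-cDC.

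The cultures had 1 array a group, so no test was possible. A gene was counted where it differed at least 2-fold on log2(intensity + 32) with the higher value above the array's median. Ranked among all genes of an array, the 38 members had a median percentile of 97 to 98 on the 3 culture arrays. The lowest member, Sgsh, stood at 56.2 to 65.2. Atp6v0d2, dim in all progenitors, had 5797 in GM-CSF CD11c+ cells, 6924 in GM-CSF adherent cells and 6676 in M-CSF adherent cells. The M-CSF adherent array was highest for 24 of the 38 members (63.2%, against 36.5% of all genes), and the GM-CSF CD11c+ array was lowest for 26 (68.4%, against 35.4%).

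GM-CSF adherent against M-CSF adherent cells differed for 2 members, both higher, against 3.37% of all genes higher and 2.12% lower. Acp5 had 1190.4 in GM-CSF adherent cells, against 327 in M-CSF adherent cells, a ratio of 3.64. Gm2a had 6225 in GM-CSF adherent cells, against 2918 in M-CSF adherent cells (ratio 2.13), and 0.88 as the log2 difference of the mean of its probe sets, below the fold set. The members' median log2 difference was -0.11, against -0.02 over all genes. Nearest to the limit below were Sgsh (136 in GM-CSF adherent cells, 266 in M-CSF adherent cells) and Arsb (1015 in GM-CSF adherent cells, 1826 in M-CSF adherent cells), both at -0.83. Of the other lysosome genes 4 were counted higher, led by the osteoclast protease Ctsk (2608 in GM-CSF adherent cells, against 335 in M-CSF adherent cells), Sort1 (2.39) and Tfec (1.12), and 1, Rragd, was lower (-1.47). The summed intensity of 7 osteoclast genes, which include Ctsk, was 5970 in GM-CSF adherent cells, against 1979 in M-CSF adherent cells. The neutrophil sum was 26787 in GM-CSF adherent cells, against 10003 in M-CSF adherent cells, and all 6 neutrophil genes were counted higher. Their part in the 2 differences was not tested.

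GM-CSF CD11c+ against GM-CSF adherent cells, from the same kind of culture, differed for 1 member, against 2.45% of all genes higher and 1.28% lower. Atp6v0a1, the V0 subunit that forms the proton path with the rotor, had 977 in CD11c+ cells, against 2178 in adherent cells (ratio 0.449). One of its 4 probe sets gave 0.19, and their mean gave -0.85, which is under 2-fold. The other 6 pump genes were not counted, with log2 differences of -0.55 to -0.11. The members' median was -0.17, against 0.01 over all genes. Of the other lysosome genes, Laptm4b (1589 in CD11c+ cells, against 476 in adherent cells) and Gga2 (2371 in CD11c+ cells, against 976 in adherent cells) were counted higher and 0 lower. The neutrophil sum was 7456 in CD11c+ cells, against 26787 in adherent cells, and its part was not tested.

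GM-CSF CD11c+ against M-CSF adherent cells differed for 5 members, 2 higher and 3 lower, against 5.32% of all genes higher and 4.29% lower. The 2 higher members are a share near that of all genes. Acp5 had 1487 in CD11c+ cells, against 327 in M-CSF adherent cells (ratio 4.54). Gm2a had 6273 in CD11c+ cells, against 2918 in M-CSF adherent cells (ratio 2.15). Both were also the members counted in GM-CSF adherent cells, a comparison that uses the same M-CSF array. Atp6v0a1 had 977 in CD11c+ cells, against 2758 in M-CSF adherent cells (ratio 0.354). Atp6v1h, a regulatory V1 subunit, had 1469 in CD11c+ cells, against 3036 in M-CSF adherent cells (ratio 0.484), and Arsb had 738 in CD11c+ cells, against 1826 in M-CSF adherent cells (ratio 0.404). With the mean of all probe sets Gm2a (0.91), Arsb (-0.77) and Atp6v1h (-0.47) fell short of 2-fold. Arsb, Atp6v0a1 and Atp6v1h each had a probe set with the opposite sign. Of the other lysosome genes 5 were counted higher, led by Ctsk (2.73), Sort1 (2.39) and Laptm4b (2.35), and 3 lower, led by Cln8 (-1.82), Rragd (-1.72) and Gnptab (-1.24). The osteoclast sum was 4787 in CD11c+ cells, against 1979 in M-CSF adherent cells, and the macrophage sum was 28489 in CD11c+ cells, against 43243 in M-CSF adherent cells. The dendritic cell precursor sum was 11255 in CD11c+ cells, 7499 in GM-CSF adherent cells and 3621 in M-CSF adherent cells. Their part was not tested.

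**Figure D4:**
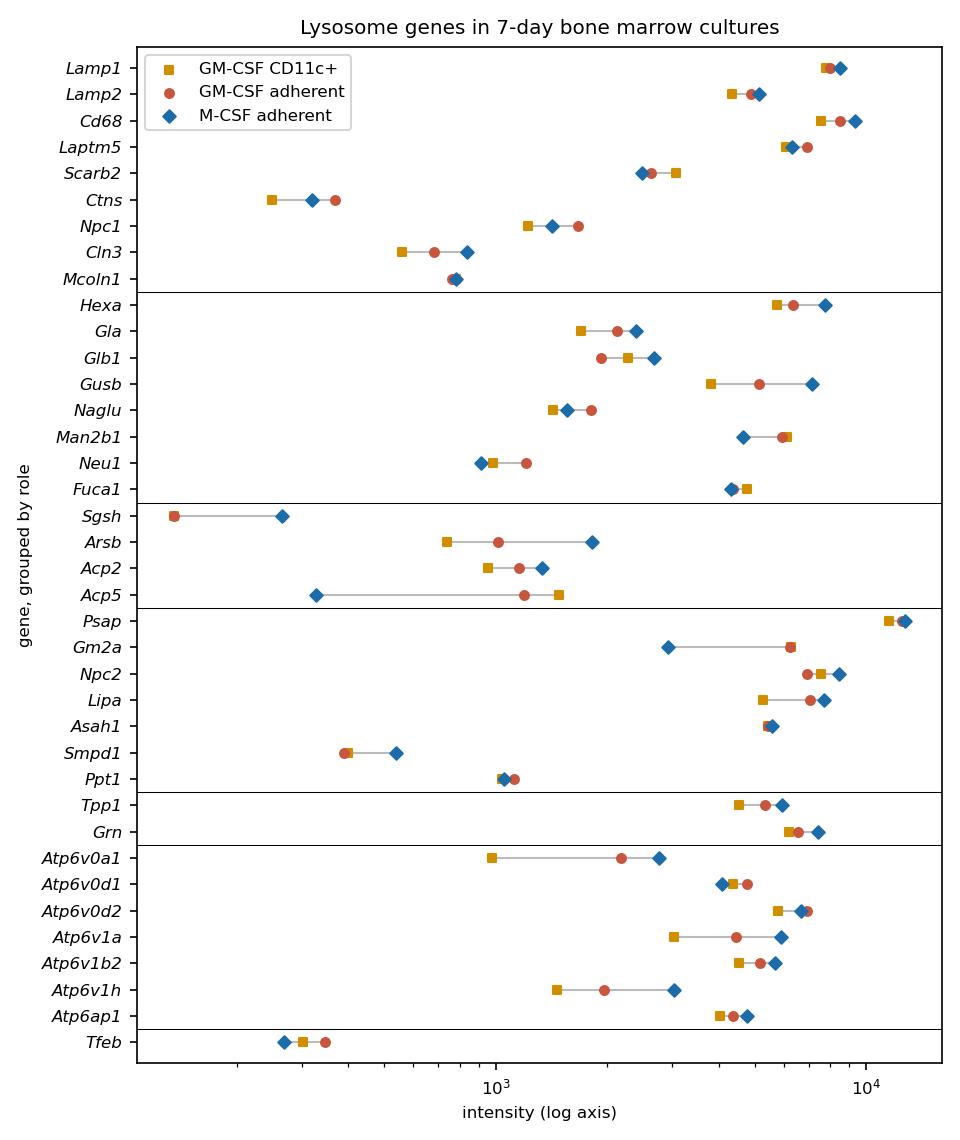
Intensity (log axis) of the 38 genes on the 3 culture arrays, 1 point per array, with rows grouped by role. Most rows span a narrow range with the M-CSF adherent point at the right (24 of 38 rows). Acp5 and Gm2a stand out with that point at the left, and Atp6v0a1 with the CD11c+ point far to the left.

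The monocyte arrays follow the first 48 h with GM-CSF, again 1 array a time and with no test. Monocytes cultured without GM-CSF were not on the arrays, so GM-CSF and time in culture cannot be told apart. At 24 h, 5 members were higher and 3 lower than at 0 h, against 6.22% of all genes higher and 7.29% lower. At 48 h, 4 were higher and 3 lower than at 0 h, against 7.40% and 6.19% of all genes. At both times the 3 lower members are a share near that of all genes. At 48 h against 24 h, 2 were higher and 0 lower, against 2.75% and 0.890% of all genes. Each array enters 2 of these 3 comparisons. The members' medians were -0.09, 0.07 and 0.09, against 0.00, 0.00 and 0.02 over all genes.

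Pump subunits were counted higher in 3 of 7 at both times. Atp6v0d2, the V0 d subunit isoform known from osteoclasts and macrophages, had 19.1 at 0 h, 233 at 24 h and 636 at 48 h. The 0 h value lies below that array's median, so no ratio to it is given, and the differences of log2(intensity + 32) were 2.37 and 3.71. Atp6v0a1 had 572 at 0 h, 2857 at 24 h and 2702 at 48 h (ratios 4.99 and 4.72 against 0 h). Atp6v1h had 1679 at 0 h, 3732 at 24 h and 4078 at 48 h. Its 3 probe sets disagreed, from -1.52 to 1.14 at 24 h and from -0.98 to 1.26 at 48 h, and their mean gave -0.06 and 0.15. Among the other pump genes, Atp6v0d1 had 5958 at 0 h, 8746 at 24 h and 9706 at 48 h, short of 2-fold.

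Gusb had 4659 at 0 h, 9840 at 24 h and 10975 at 48 h, with ratios of 2.11 and 2.36 against 0 h, though the mean of its probe sets at 24 h was just under 2-fold (0.99). Acp2 had 690.1 at 0 h, 1470 at 24 h and 1316 at 48 h, and was counted at 24 h only. Arsb had 5900 at 0 h, 889 at 24 h and 2382 at 48 h, the largest fall at 24 h among the members (-2.69), followed by a difference of 1.39 at 48 h against 24 h. The 3 probe sets of Arsb ran from -2.69 to -0.35 at 24 h against 0 h, and their mean gave 0.62 at 48 h against 24 h. Sgsh had 624 at 0 h, 208 at 24 h and 194 at 48 h, but its second probe set gave 0.09 and 0.25 and the mean -0.68 and -0.64. Smpd1 had 1475 at 0 h, 723 at 24 h and 675 at 48 h and was counted at 48 h. Acp5 had 125 at 0 h, 43.9 at 24 h and 98.1 at 48 h, counted at 24 h. With 64 added in place of 32, the difference of Acp5 was -0.81, under 2-fold. Tfeb was dimmer at the later times, 1708 at 0 h, 998 at 24 h and 1072 at 48 h, short of 2-fold.

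Of the 67 other lysosome genes, 3 were counted higher and 3 lower at 24 h against 0 h, and 5 higher and 6 lower at 48 h against 0 h. Igf2r had 26.7 at 0 h, 460.1 at 24 h and 1129 at 48 h. Tpcn1 had 3609 at 0 h, 387 at 24 h and 251.3 at 48 h. Also counted were Rraga (1.21) and Tpcn2 (1.11) higher, with Dnase2a (-1.58) and Hgsnat (-1.55) lower, at 24 h, and Rragd (1.90) and Ctsk (1.56) higher, with Cln8 (-1.38) and Hgsnat (-1.26) lower, at 48 h. At 48 h against 24 h, 4 were higher, led by Rragd (1.64), Dnase2a (1.47) and Igf2r (1.24), and 0 lower. Marker levels also differed over the same hours. The osteoclast sum was 2329 at 0 h, 6664 at 24 h and 9757 at 48 h, of which Dcstamp made 20.8 at 0 h, 5232 at 24 h and 6478 at 48 h. Without Dcstamp the sum was 2309 at 0 h, 1432 at 24 h and 3279 at 48 h. Of the 7 osteoclast genes, 2 were counted higher and 1 lower at 24 h, and 3 higher and 1 lower at 48 h. The neutrophil sum was 18330 at 0 h, 7847 at 24 h and 6614 at 48 h. The dendritic cell precursor sum was 11636 at 0 h, 21954 at 24 h and 25942 at 48 h. That of the granulocyte-monocyte progenitor genes was 31011 at 0 h, 13064 at 24 h and 11902 at 48 h. The megakaryocyte sum was 177 at 0 h, 10251 at 24 h and 8555 at 48 h, and without its brightest gene 127 at 0 h, 169 at 24 h and 468 at 48 h. Of 6 neutrophil genes 3 were counted lower and 1 higher at 24 h, while the macrophage sum was 27231 at 0 h, 36569 at 24 h and 40129 at 48 h. Their part in the lysosome differences was not tested.

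**Figure D5:**
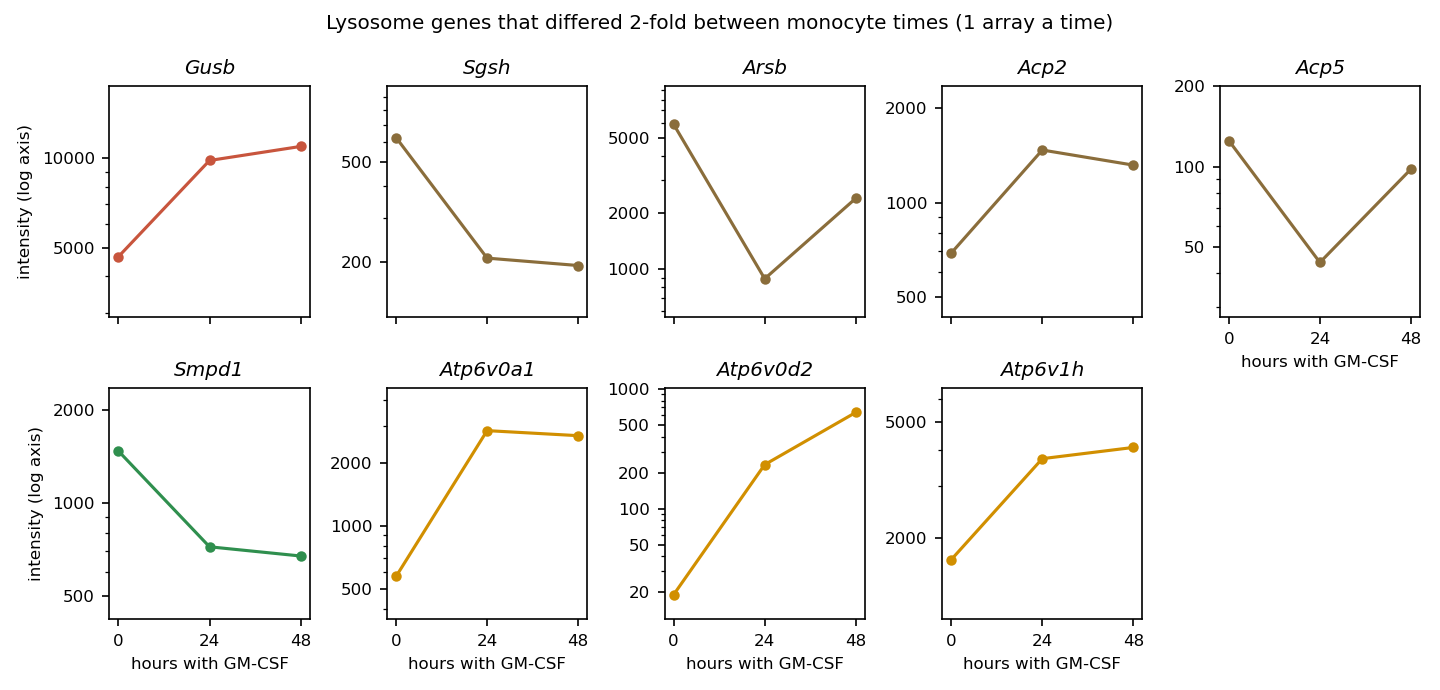
Intensity (log axis) of the 9 lysosome genes counted in any monocyte comparison at 0, 24 and 48 h with GM-CSF, 1 array a time, coloured by role. Atp6v0d2 climbs from 19.1 through 233 to 636, Atp6v0a1 and Gusb are higher from 24 h on, and Arsb falls to 889 at 24 h and stands at 2382 at 48 h.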

How the data were processed

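RNA of 15 mouse samples was hybridised to one-colour Affymetrix 3' arrays after biotin labelling with a 3' IVT kit, per the labels' protocols. The authors deposited a table of linear intensity values, 1 per probe set and array. Background correction, summarisation and normalization are not given in the sources used here. All columns were matched to samples, with 0 left over. The table has 45037 probe sets. Those with 1 annotated gene (34945) were kept, and those with several (932) or none (9160) were dropped, which left 18193 genes, 18031 of them named through RefSeq.

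Values were transformed as log2(intensity + 32), so differences of dim genes are understated. The 8 progenitor arrays, 2 for each of 4 groups, entered a single model in limma 3.58.1 (R 4.3.3), with the variance prior following intensity. Moderation raised the degrees of freedom from 4 to 12.6. Two-sided p-values received the Benjamini-Hochberg adjustment over every gene. The fit was tested on simulated data. Single-array comparisons have no p-value.

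The members and all lists were chosen with earlier results of these data known. Up to 8 members a direction are given with array values, and up to 3 other lysosome genes are named. Alternatives were other added constants (16 and 64), quantile normalization, dim genes left out, the mean of all probe sets, no intensity trend, the replicate number as a block, each array left out, and other fold limits. Tables were handled with pandas 2.3.3 and numpy 2.4.6, and figures with matplotlib 3.10.9.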

Additional observations from a re-analysis of the deposited data

How the results depend on the processing

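The 112 calls of members in the 5 tested comparisons were all kept with 16 in place of 32, with dim genes left out and without the intensity trend. With 64 added 110 were kept, and with quantile normalization 107. Taking the mean of all probe sets kept 102 and lost the others, 7 with the same sign and 3 with the sign turned. Those 3, none of them called, were Man2b1 in GMP against CMP (-0.04, adjusted p = 0.881), Gm2a in CDP against GMP (-0.03, adjusted p = 0.9) and Atp6v1h in pre-cDC against GMP (0.03, adjusted p = 0.782). That mean lowered the count of lower members in CDP against CMP to 1. Leaving out 1 array at a time kept 98 to 108 of the 112. The counts then ran from 11 to 15 higher and from 1 to 2 lower in GMP against CMP, from 10 to 14 higher and from 0 to 2 lower in CDP against CMP, from 10 to 12 higher and from 8 to 12 lower in CDP against GMP, from 21 to 24 higher and from 2 to 3 lower in pre-cDC against CDP, and from 20 to 21 higher and from 7 to 9 lower in pre-cDC against GMP.

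The replicate block, with the array number of the titles as a term, gave 15 higher and 1 lower in GMP against CMP, 15 and 2 in CDP against CMP, 12 and 12 in CDP against GMP, 24 and 4 in pre-cDC against CDP, and 21 and 9 in pre-cDC against GMP. It kept all 112 calls. Only 2 numbers exist and the labels tie them to no animal or day, so the numbers were not taken to pair the samples. Deviations from the group means of same-numbered arrays correlated at -0.04 (CMP and GMP) to 0.22 (CDP and pre-cDC) over 11669 genes.

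Of the 25 single-array counts, 16 or 64 in place of 32 kept 25 and 24, quantile normalization 25, and the mean of all probe sets 14. Under that mean 10 fell short with the same sign, and Atp6v1h in monocytes at 24 h fell short with its sign turned (-0.06). That mean gave 1 higher member in GM-CSF adherent against M-CSF adherent cells, 0 lower in GM-CSF CD11c+ against GM-CSF adherent cells, 1 higher and 1 lower in GM-CSF CD11c+ against M-CSF adherent cells, 3 higher and 5 lower in monocytes at 24 h against 0 h, and 1 higher at 48 h against 24 h. A 1.5-fold limit, which admits more genes by construction, gave 3 lower members in GM-CSF adherent and 6 lower in GM-CSF CD11c+ against M-CSF adherent cells, 7 lower in monocytes at 24 h, 9 higher and 5 lower at 48 h against 0 h, and 5 higher at 48 h against 24 h. A 4-fold limit left 6 of the 25, with 0 higher in GM-CSF adherent against M-CSF adherent cells, 0 lower in GM-CSF CD11c+ against GM-CSF adherent cells, 1 higher and 0 lower in GM-CSF CD11c+ against M-CSF adherent cells, 2 higher and 1 lower at 24 h, 2 higher and 0 lower at 48 h against 0 h, and 0 higher at 48 h against 24 h. The cause of the changes with the mean of all probe sets was not tested. Single arrays allow no estimate of error.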

Other observations

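The pre-cDC array titled Spl had a median intensity of 74.17 over all probe sets. Ranked among all genes of that array, the 38 members had a median percentile of 83.3, from 34 (Atp6v0d2) to 99.6 (Gm2a). Psap had 4472, Gm2a 7425, Cd68 579, Tfeb 227, Gla 124, Gusb 362 and Atp6v0d2 54.7. The title says Spl while the cell type label of this sample names a bone marrow progenitor. Its scale differs from that of the other progenitor arrays, so these values were set against none of them.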
